A study of Mus musculus with 32 samples.

Results

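The levels of all measured mRNAs were compared between the times at which Hes7 was high and the intervening time at which it was low in one time course of mouse presomitic mesoderm (PSM) cells, called Ex4. The comparison used 9 of the 32 libraries of the study: 3 around the first Hes7 peak (200, 215 and 230 min), 3 around the trough that followed (260, 275 and 292 min) and 3 around the second peak (327, 345 and 365 min). These libraries were picked by their measured Hes7 and Lfng levels, so the values of Hes7, of its luciferase reporter and of Lfng are given as a description, with no test. The trough lies between the peaks (mean times 215, 275.7 and 345.7 min), so that a steady rise or fall over time largely cancels when the mean of both peaks is set against it.

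All libraries came from the line AES0204, mouse epiblast stem cells that carry a Hes7-luciferase reporter and that are pluripotent cells of the postimplantation type. The cells were kept with Activin A, bFGF and the Wnt pathway inhibitor IWR-1-endo, were plated with the ROCK inhibitor Y27632, and were then turned into PSM in CDMi medium. This held bFGF together with CHIR99021, which blocks GSK3 and so activates Wnt signalling, SB431542, which blocks TGF-β receptors, and LDN193189, which blocks BMP receptors. A later medium change lowered the CHIR99021 and kept the other agents, and all groups shared this treatment. Dishes were then frozen at successive times, 1 dish for each library, while a further dish was followed in a luminometer; the second time course of the same design, Ex5, gave the other 16 libraries. Each window therefore holds 3 dishes of neighbouring times and no repeat of a time, so its spread includes change over time, and p-values measure only the spread between these libraries.

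In the embryo, the PSM is the unsegmented mesoderm of the tail end from which somites, the forerunners of vertebrae and muscle, bud off at regular intervals. Its cells carry the segmentation clock, in which Hes7 protein represses its own gene and Notch target genes, so that their transcripts rise and fall together. Genes of the FGF and Wnt pathways also cycle in the mouse PSM, with Wnt targets known to run out of step with Notch targets.

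The 9 libraries held between 23.04 and 26 M counts, with a median of 24.11 M, and peak and trough libraries overlapped in depth. Several defining PSM markers were abundant in each of them: T reached 629 to 717 CPM (counts scaled to a common library size and composition), Tbx6 402 to 490.1 CPM and Dll1 672 to 836 CPM. Msgn1, a further PSM marker, was lower, at 48.4 to 65.0 CPM. Some defining markers of other cells were near 0, with Nanog at most 0.427, Sox17 at most 0.284, Foxf1 at most 0.499, Tcf15 at most 0.487 and Uncx at most 0.218 CPM. Others were present at levels below those of T, Tbx6 and Dll1. The epiblast genes Pou5f1, at 37.8 to 78.6 CPM, and Cdh1, at 47.3 to 91.5 CPM, overlapped Msgn1 in range. Sox2, which epiblast and neural cells share, stood at 23 to 33.6 CPM. The neural genes stood at 10.2 to 14.5 (Pax6), 15.3 to 26.1 (Irx3) and 2.31 to 2.96 CPM (Sox1). Kdr, of vascular mesoderm, reached 2.46 CPM, Meox1, of somites, 2.56 CPM, and the endoderm gene Foxa2 1.42 CPM. In such bulk RNA, fewer cells of a type and less RNA per cell cannot be told apart.

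Hes7 stood at 260.4, 285 and 272 CPM in the libraries of the first peak, at 168, 153 and 188 CPM in the trough, and at 272, 278 and 255 CPM in the second peak. All 6 peak libraries lay above all 3 trough libraries, and the peaks were 1.59-fold higher (log2 difference, peaks minus trough, 0.67 ± 0.045 SE). The libraries just outside the windows lay between them, with Hes7 at 230.1 CPM at 185 min, 232 CPM at 245 min, 204 CPM at 310 min and 208 CPM at 385 min. Toward the ends of the record Hes7 was low again, at 124 CPM at 155 min and 170.5 CPM at 405 min.

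Lfng, which encodes a glycosyltransferase that modifies Notch receptors, stood at 93.0, 100.5 and 93.7 CPM in the first peak, 44.9, 41.5 and 45.6 CPM in the trough and 112, 106 and 102 CPM in the second peak. With no overlap between peak and trough libraries, its 2.3-fold difference exceeded that of Hes7. The luciferase transcript read 18.7, 16.3 and 18.4 CPM in the first peak, 11.4, 12.3 and 13.6 CPM in the trough and 19.7, 20.2 and 21.1 CPM in the second peak. Its peak libraries were also all above its trough libraries, by 1.53-fold.

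**Figure D1:**
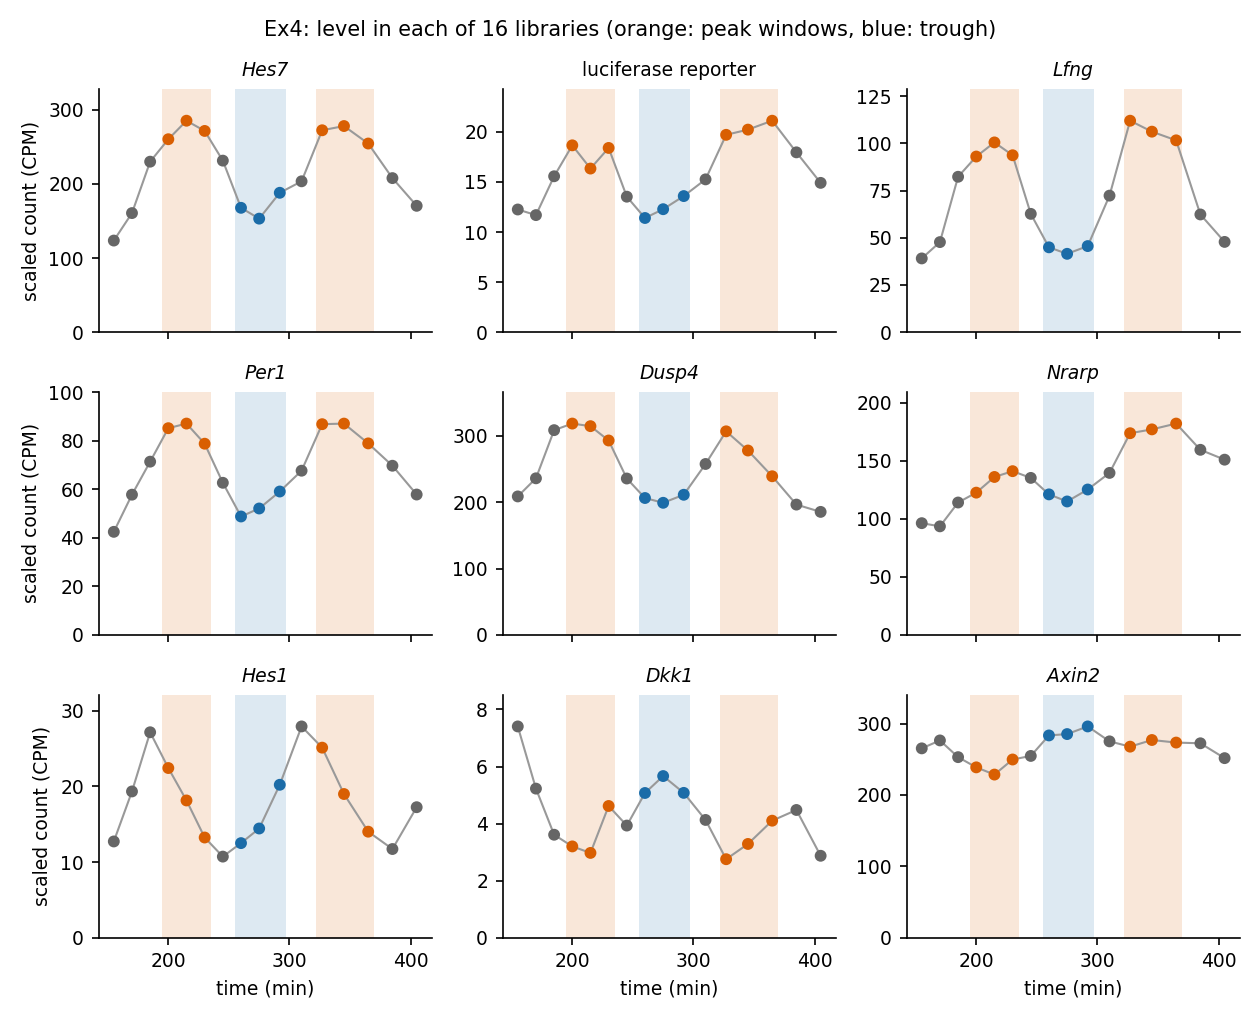
Scaled count in CPM (vertical axes, from 0) against time in min for 9 genes in the 16 Ex4 libraries; each point is 1 library, orange bands and points mark both peak windows and blue ones the trough. Hes7, luciferase, Lfng, Per1 and Dusp4 were low in all 3 trough libraries, Dkk1 and Axin2 were high there, and Hes1 was highest at 185 and 310 min, before each peak window.

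Across the transcriptome few genes followed Hes7 closely enough to pass the test. Of 11916 genes tested with edgeR's quasi-likelihood test and a Benjamini-Hochberg adjusted p below 0.05, 57 differed between peaks and trough (0.478% of those tested), 33 of them higher at the peaks (0.277%) and 24 lower (0.201%). Leaving out Hes7, Lfng and luciferase, 54 genes remained, 30 higher and 24 lower. The differences were small: 3 of these 30 higher genes (Lhx1, Per1 and Sox8) reached 1.5-fold and their median was 1.24-fold, whereas 1 of the 24 lower genes reached 1.5-fold and their median was 1.16-fold. Over all tested genes the median log2 difference was near 0.

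In 23 of the 30 higher genes and 11 of the 24 lower genes the 6 peak libraries did not overlap the 3 trough libraries. Over all tested genes, 138 (1.16%) lay wholly above the trough at the peaks and 128 (1.07%) wholly below. The calls depended on single libraries: without the trough library of 275 min 21 genes passed (15 higher, 6 lower), without the trough library of 260 min 117 passed (39 higher, 78 lower), and without that of 292 min 29 passed. Of the peak libraries, leaving out 215 min gave 89 genes, 345 min 29 and 365 min 34, and the number of lower genes alone was 14 without 200 min and 15 without 327 min. Whichever of the 9 libraries was left out, 11 of the 30 higher genes kept their call (Cxxc5, Cyp26a1, Dusp4, Dusp7, Efna1, Epha2, Gse1, Lhx1, Nrarp, Per1 and Rest), as did 2 of the 24 lower genes (Fzd1 and Zfp703). Among these genes only Per1 also kept its call with all windows moved 1 library earlier or later (adjusted p = 2.73e-05 and 0.0298). Each of the others lost it in 1 or both of these shifts. Examples are Dusp4 and Efna1 in the later windows (0.437 and 0.623) and Lhx1 and Fzd1 in the earlier ones (0.923 and 0.504).

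**Figure D2:**
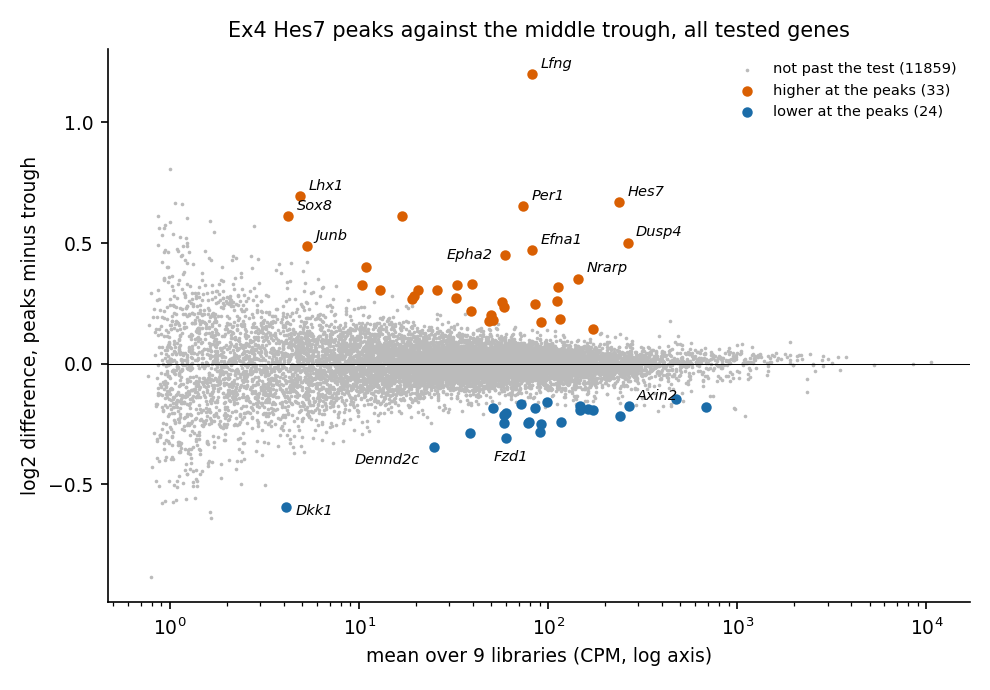
Log2 difference, peaks minus trough (vertical axis), against the mean level over the 9 libraries in CPM (log axis) for the 11916 tested genes; orange points are the 33 genes higher at the peaks, blue points the 24 lower ones. Lfng lies farthest up, Dkk1 lies at -0.59, and most called genes lie within 0.5 of 0.

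**Figure D3:**
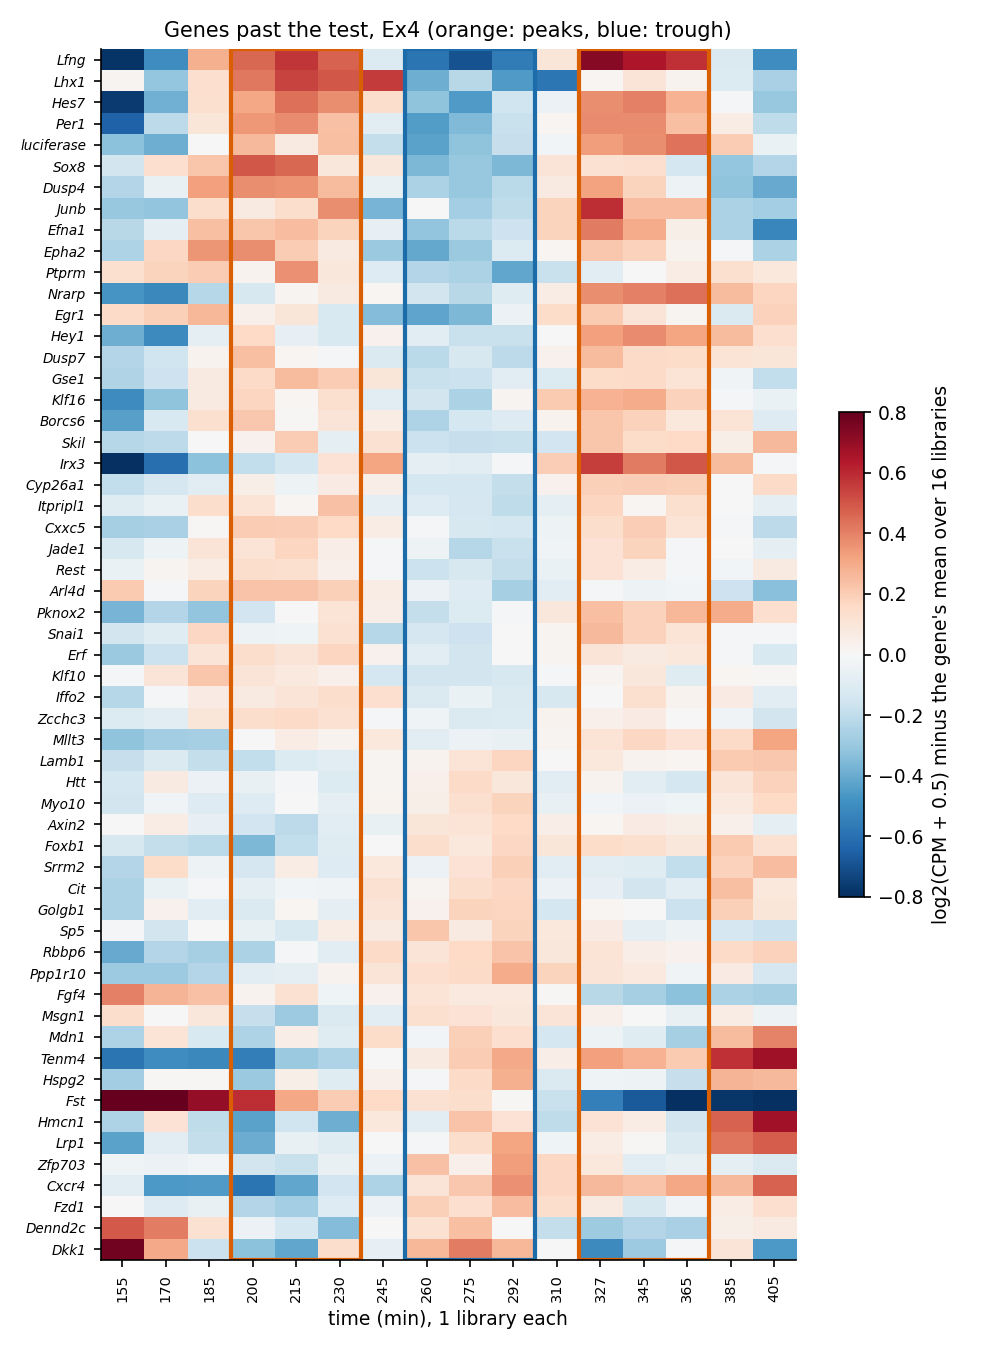
Level of the 57 called genes in each of the 16 Ex4 libraries (columns, time in min), as log2(CPM + 0.5) minus the gene's mean over all 16; colours stop at 0.8 above or below, which Lfng, Fst and others exceed at some times. Frames mark the peak windows (orange) and the trough (blue): the higher genes are paler or blue in the trough frame, and for Fst, Tenm4, Irx3 and Cxcr4 a drift over the whole record is larger than the contrast.

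The Notch pathway, to which Hes7 and Lfng belong, is described first. Of 24 members of the Notch and Hes/Hey list tested, 5 rose at the peaks, namely Hes7, Lfng, Nrarp, Efna1 and Hey1, none fell, and 19 did not pass; the list median was a log2 difference of 0.04. The rise of Hes7 and Lfng was fixed because they set the windows, which leaves 3 other members with a call. One of them, Efna1, encodes a ligand of Eph receptors and was also counted in the list of ephrins and Eph receptors below. Receptors, ligands and the DNA-binding partner of Notch were among the 19.

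Nrarp, a small ankyrin protein that is induced by Notch and dampens it, stood at 123, 136 and 141 CPM in the first peak, 121, 115 and 125 CPM in the trough and 174, 177 and 182 CPM in the second peak. Only the lowest first-peak library, at 200 min, fell within the trough range, and all second-peak libraries lay far above. The difference was 1.28-fold (log2 0.35 ± 0.039 SE, adjusted p = 6.18e-07).

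Efna1, which encodes the membrane-bound ligand ephrin-A1, read 89.8, 91.1 and 87.0 CPM in the first peak, 61.7, 66.0 and 68.6 CPM in the trough and 102, 94.3 and 79.3 CPM in the second peak. No peak library overlapped the trough, and the 1.39-fold difference (log2 0.47 ± 0.052 SE, adjusted p = 5.69e-07) was close in size at both peaks (0.45 and 0.49). Epha2, a receptor for this ligand, showed the same order: 74.1, 66.0 and 60.2 CPM in the first peak, 42.9, 46.5 and 53.0 CPM in the trough and 66.5, 65.2 and 58.3 CPM in the second peak, a 1.37-fold difference (adjusted p = 1.12e-05). They were the 2 of 18 tested ephrins and Eph receptors that passed, both higher, and the list median was 0.07.

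Hey1, a repressor induced by Notch, was expressed at 8.93 to 11.0 CPM in the first peak, 8.56 to 9.17 CPM in the trough and 12.3 to 12.9 CPM in the second peak. Its groups overlapped through the first peak, and its call (log2 0.33, adjusted p = 0.0444) was lost without any 1 of 6 libraries, with adjusted p from 0.0785 to 0.339. The receptor genes gave log2 differences of 0.11 for Notch1 (adjusted p = 0.484), -0.17 for Notch2 (0.0911) and -0.07 for Notch3 (0.576). Among the ligand genes, Dll1 differed by 0.04, Dll3 by 0.01 and Jag1 by 0.05, and Rbpj, which encodes the DNA-binding protein of the pathway, by 0.02, with adjusted p between 0.83 and 0.964.

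Hes1 and Hes5, the other classical Hes targets of Notch, did not pass (log2 0.24 and 0.23, adjusted p = 0.647 and 0.576), although both swung widely within the windows. Hes1 fell through the first peak (22.4, 18.1 and 13.2 CPM), climbed through the trough (12.5, 14.4 and 20.2 CPM) and fell again through the second peak (25.1, 19.0 and 14.0 CPM). Its highest libraries were those of 185 and 310 min, at 27.1 and 27.9 CPM, just before the Hes7 windows. When each window was moved 1 library earlier, Hes1 differed by 0.88 (1.84-fold, adjusted p = 2.73e-05) and Hes5 by 0.74 (1.67-fold, adjusted p = 2.51e-04), and with windows 1 library later by -0.49 and -0.34 (adjusted p = 0.279 and 0.398). Hes7 gave 0.67 in its own windows, 0.48 in the earlier and 0.49 in the later ones. Over all genes 18 passed in the earlier windows and 22 in the later ones.

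The sequences just upstream of 4 of these genes are shown because they rose together with Hes7 and because Hes, Notch and clock proteins are known to act through short motifs. Each line gives the 250 bases before the RefSeq transcription start on GRCm38.p6, 5′ to 3′ on the strand of the gene, with motif matches in capitals. The positions are chr5:140607091-140607340 (plus strand) for Lfng, chr11:69120203-69120452 (plus) for Hes7, chr2:25180508-25180757 (plus) for Nrarp and chr11:69098699-69098948 (plus) for Per1. Per1 has 2 listed starts, of which the first in the list was used. This start lies downstream of the gene start that GENCODE M21 gives, chr11:69095217.
Lfng: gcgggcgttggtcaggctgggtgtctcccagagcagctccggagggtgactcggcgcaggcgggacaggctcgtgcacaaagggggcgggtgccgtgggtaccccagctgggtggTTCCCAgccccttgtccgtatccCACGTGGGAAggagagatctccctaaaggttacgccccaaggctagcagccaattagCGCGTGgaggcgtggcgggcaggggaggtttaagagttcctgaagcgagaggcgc
Hes7: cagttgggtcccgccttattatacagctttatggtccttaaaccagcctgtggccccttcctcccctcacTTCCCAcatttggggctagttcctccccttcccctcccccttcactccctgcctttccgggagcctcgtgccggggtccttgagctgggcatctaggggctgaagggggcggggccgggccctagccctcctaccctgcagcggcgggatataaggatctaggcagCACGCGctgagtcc
Nrarp: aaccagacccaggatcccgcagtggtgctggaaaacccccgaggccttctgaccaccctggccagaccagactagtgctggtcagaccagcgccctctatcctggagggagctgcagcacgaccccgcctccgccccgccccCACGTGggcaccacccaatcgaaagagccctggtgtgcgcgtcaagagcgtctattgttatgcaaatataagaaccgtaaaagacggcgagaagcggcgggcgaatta
Per1: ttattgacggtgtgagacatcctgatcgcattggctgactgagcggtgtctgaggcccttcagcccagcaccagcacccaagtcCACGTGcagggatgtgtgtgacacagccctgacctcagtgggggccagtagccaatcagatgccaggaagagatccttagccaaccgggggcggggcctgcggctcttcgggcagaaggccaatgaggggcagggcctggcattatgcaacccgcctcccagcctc

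Motifs were searched as exact letters on both strands: TGGGAA (bound by RBPJ, the Notch effector), CACGTG (an E-box, bound by clock and other basic helix-loop-helix activators), CACGCG (a class C site, bound by Hes and Hey repressors), TGACGTCA (a CRE) and TTCAAAG (bound by TCF/LEF, the effectors of Wnt). Lfng held TGGGAA 135 and 108 bases before its start, CACGTG 112 bases before and CACGCG 55 bases before; the E-box and the nearer RBPJ match overlap within 1 run of capitals. Hes7 held TGGGAA 180 and CACGCG 14 bases before its start, whereas Nrarp and Per1 each held 1 CACGTG, 108 and 166 bases before. All 4 sequences shown thus held a match, and rising with Hes7 does not single them out. Among the higher genes not shown, Efna1, Lhx1, Dusp7, Cyp26a1, Borcs6, Ptprm, Jade1, Erf and others held no match to any of these motifs. Further ones, such as Gse1 and Junb, did hold a match. For Efna1, which has 2 listed starts, only the first in the list was searched. The set of RefSeq promoters used here, matched by gene symbol, did not hold every gene, and genes missing from it, such as Dusp4, were not searched. Over the 9428 tested genes in this set, 20.2% held TGGGAA, 8.63% CACGTG, 15.5% CACGCG, 2.93% TGACGTCA and 3.11% TTCAAAG. Of the 33 higher genes 23 had a promoter in this set, and 3 held TGGGAA, 4 CACGTG, 6 CACGCG, 2 TGACGTCA and 1 TTCAAAG. These counts include Hes7 and Lfng, which set the windows: both held TGGGAA and CACGCG, and Lfng also CACGTG. The matches are descriptions of letters, not of binding.

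Per1, a repressor of the circadian clock, had the largest difference of any gene above 5 CPM other than those that set the windows. It stood at 85.1, 87.0 and 78.7 CPM in the first peak, 48.8, 52.1 and 59.1 CPM in the trough and 86.8, 87.0 and 78.9 CPM in the second peak. The groups were well apart, and both peaks reached nearly the same level, with a 1.57-fold difference (log2 0.65 ± 0.049 SE, adjusted p = 7.78e-11). Among 17 tested circadian clock genes Per1 was the 1 that passed, and the list median was 0.02.

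Genes of FGF/ERK signalling and its feedback also held calls. Of 28 tested, 4 rose at the peaks (Dusp4, Dusp7, Egr1 and Snai1), 1 fell (Fgf4) and 23 did not pass, with a list median of 0.04. Dusp4, a phosphatase that switches off MAP kinases, read 319, 315 and 293 CPM in the first peak, 206, 199 and 211 CPM in the trough and 307, 278 and 239 CPM in the second peak. All peak libraries exceeded all trough libraries, by 1.42-fold on average (log2 0.50 ± 0.047 SE, adjusted p = 2.16e-08).

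Dusp7, a related phosphatase, rose from 27.4 to 29.1 CPM in the trough to 31.6 to 38.2 CPM at the peaks (log2 0.33, adjusted p = 9.81e-04). The immediate early gene Egr1 read 30.2, 31.6 and 39.3 CPM in the trough and 37.3 to 47.0 CPM at the peaks, so that its last trough library overlapped (log2 0.33, adjusted p = 0.00617). Without the library of 260 min or that of 275 min the call on Egr1 was lost (adjusted p = 0.0688 and 0.186). Snai1, a repressor of epithelial genes, differed by 0.20 (adjusted p = 0.046), and lost its call without any 1 of 5 libraries (0.112 to 0.499).

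The best-known feedback genes of the pathway moved less. Dusp6 stood at 233 to 259 CPM at the peaks and 219 to 239 CPM in the trough, which overlap, and gave 0.12 (adjusted p = 0.166). Spry4 gave 0.11 (0.276) and Spry2 0.01 (0.959). In the windows 1 library earlier, Dusp6 differed by 0.20 (adjusted p = 0.00168) and Spry4 by 0.18 (0.0106).

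Of 18 tested immediate early genes 3 rose, Junb, Egr1 and Klf10, and none fell, with a list median of 0.05. Junb, a subunit of the transcription factor AP-1, was low in all libraries, at 3.81 to 4.71 CPM in the trough and 4.95 to 7.33 CPM at the peaks. Though these ranges did not overlap, the call (log2 0.49, adjusted p = 0.0433) was lost without any 1 of 5 libraries (adjusted p = 0.0604 to 0.442). Klf10, a zinc finger repressor, differed by 0.18 (adjusted p = 0.0472) and lost its call without any 1 of 6.

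Several transcription factors outside these lists rose as well. Lhx1, a LIM homeobox factor of early mesoderm, stood at 6.23, 6.804 and 6.603 CPM in the first peak, 3.33, 3.81 and 3.17 CPM in the trough and 4.58, 4.91 and 4.63 CPM in the second peak. Its peak libraries were all above the trough, by 1.62-fold (log2 0.69 ± 0.11 SE, adjusted p = 2.68e-04), yet its time course stayed high at 245 min (6.89 CPM) and was lowest at 310 min (2.87 CPM). Lhx1 was the 1 of 4 tested genes of the lateral, intermediate and vascular mesoderm list that passed.

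Sox8, a factor of the SoxE group, rose from 3.04 to 3.19 CPM in the trough to 3.62 to 5.93 CPM at the peaks (log2 0.61, adjusted p = 0.0113), a call lost without the library of 275, 292 or 345 min. Irx3, a homeobox factor of neural and mesodermal tissue, differed by 0.28 (adjusted p = 0.0387), carried by the second peak alone, and was the 1 of 11 neural genes with a call. Rest, a repressor of neuronal genes, stood at 74.2 to 77.6 CPM in the trough and 84.3 to 93.6 CPM at the peaks (log2 0.25, adjusted p = 2.68e-04). Erf, a repressor that ERK keeps out of the nucleus, rose by 0.19 (adjusted p = 0.00619), and the call was lost without the library of 275 min (0.197).

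Further higher genes had more modest differences. Gse1 stood at 94.96 to 100.8 CPM in the trough and 116 to 128 CPM at the peaks, with no overlap (log2 0.32, adjusted p = 6.62e-07). Cxxc5, a zinc finger protein that restrains Wnt signalling, stood at 94.6 to 104 CPM in the trough and 113 to 120.3 CPM at the peaks (log2 0.26, adjusted p = 6.13e-05). Cyp26a1, the enzyme that clears retinoic acid in the tailbud, rose from 27.9 to 28.8 CPM to 31.0 to 36.6 CPM (log2 0.27, adjusted p = 0.00158), as the 1 of 13 retinoic acid genes with a call.

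Ptprm, a receptor phosphatase, differed by 0.40 (adjusted p = 0.0119), Klf16 by 0.31 (0.00619), Borcs6, a subunit of a complex that positions lysosomes, by 0.31 (0.00876) and Skil, a corepressor of SMAD proteins, by 0.31 (0.0371). Skil was the 1 called gene among 13 BMP and TGF-β targets. Calls were lost without the library of 275 min in Klf16 (adjusted p = 0.217), without that of 260 or 275 min in Borcs6, without that of 275 or 292 min in Ptprm and without any 1 of 7 in Skil. The remaining 7 higher genes, Jade1, Itpripl1, Arl4d, Pknox2, Iffo2, Zcchc3 and Mllt3, had log2 differences between 0.14 and 0.27.

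Among the genes that were lower when Hes7 was high, 3 were Wnt targets or feedback genes. Of 27 tested Wnt targets and feedback genes 3 fell at the peaks, Dkk1, Axin2 and Sp5, none rose, and 24 did not pass; the list median was -0.06. The list's summed level overlapped between the groups, at 3484 to 3794 CPM at the peaks and 3686 to 3814 CPM in the trough.

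Dkk1, a secreted inhibitor of Wnt receptors, was rare, at 3.20, 2.97 and 4.62 CPM in the first peak, 5.07, 5.67 and 5.08 CPM in the trough and 2.75, 3.29 and 4.10 CPM in the second peak. Its trough libraries were all above its peak libraries, and it was 1.51-fold lower at the peaks (log2 -0.59 ± 0.13 SE, adjusted p = 0.0185). The call was lost without the library of 275, 292, 327 or 345 min (adjusted p = 0.0591 to 0.259). Its highest level in the record came before the windows, at 155 min (7.40 CPM).

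Axin2, a scaffold of the complex that degrades β-catenin, stood at 239, 229 and 250 CPM in the first peak, 283, 285 and 296 CPM in the trough and 268, 277 and 273 CPM in the second peak. No library overlapped, but the second peak was much closer to the trough than the first, and the mean difference was 1.13-fold (log2 -0.18 ± 0.033 SE, adjusted p = 0.00431, or 0.0591 without the library of 292 min). Sp5, a transcription factor induced by Wnt, read 145 to 165 CPM at the peaks and 166 to 184 CPM in the trough (log2 -0.19, adjusted p = 0.0165), and lost its call without the library of 260, 292, 345 or 365 min (0.059 to 0.107).

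Fzd1, a Wnt receptor that was not in the list, fell with a firmer call. It read 50.9, 49.7 and 56.0 CPM in the first peak, 68.5, 66.0 and 71.3 CPM in the trough and 63.2, 54.9 and 58.8 CPM in the second peak. All trough libraries were higher, with a 1.24-fold difference (log2 -0.31 ± 0.045 SE, adjusted p = 1.12e-04). Zfp703, a zinc finger corepressor, fell by a like amount (log2 -0.28, adjusted p = 9.81e-04), from 91.3 to 112 CPM in the trough to 78.5 to 94.1 CPM at the peaks.

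PSM identity genes with a call went both ways, also when Hes7, which set the windows, is left aside. Of 18 tested members of the PSM and tailbud list 2 rose, namely Cyp26a1 and Hes7, whose rise was fixed by the choice of windows. Of the others 3 fell (Msgn1, Fgf4 and Sp5) and 13 did not pass, with a list median of 0.01. Msgn1, a helix-loop-helix factor that drives PSM fate, read 48.4 to 61.1 CPM at the peaks and 63.3 to 65.0 CPM in the trough, without overlap (log2 -0.21, adjusted p = 0.00622, or 0.0696 without the library of 275 min). Fgf4, a ligand made in the tailbud, gave -0.20 (adjusted p = 0.00782, or 0.0585 without that library). The core identity genes T and Tbx6 gave -0.07 and -0.03 (adjusted p = 0.603 and 0.898).

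The upstream sequences of Dkk1 and Msgn1 are shown beside those of Lfng, Hes7, Nrarp and Per1. They were picked because both fell and both held the TCF/LEF motif. They are the 250 bases before the start, at chr19:30549497-30549746 (minus strand) and chr12:11208949-11209198 (minus strand) of GRCm38.p6, 5′ to 3′ on the strand of the gene, with matches in capitals.
Dkk1: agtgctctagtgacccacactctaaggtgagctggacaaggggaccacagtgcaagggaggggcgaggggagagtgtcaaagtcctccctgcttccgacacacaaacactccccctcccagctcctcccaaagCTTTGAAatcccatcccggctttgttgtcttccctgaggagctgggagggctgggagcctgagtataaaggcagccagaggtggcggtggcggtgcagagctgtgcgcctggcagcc
Msgn1: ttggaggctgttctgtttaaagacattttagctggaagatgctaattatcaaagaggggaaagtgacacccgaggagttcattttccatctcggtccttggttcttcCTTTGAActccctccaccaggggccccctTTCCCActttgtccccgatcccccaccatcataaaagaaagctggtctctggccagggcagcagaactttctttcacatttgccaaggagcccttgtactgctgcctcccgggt

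In Dkk1 the match to TTCAAAG lies 117 bases before the start. Msgn1 holds 1 such match 143 bases before and 1 match to TGGGAA 114 bases before. Axin2, Sp5 and Fzd1, which also fell, held no TTCAAAG, whereas Ppp1r10, which fell, and Epha2, which rose, held 1 each. Of the 24 lower genes 20 had a promoter in the RefSeq set used, of which 3 held TTCAAAG, 7 TGGGAA, 0 CACGTG, 1 CACGCG and 1 TGACGTCA. The shares over all promoters are those given above.

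A second set of lower genes had long transcripts and encoded large proteins. Of the 24 lower genes 12 belonged to the longest of 5 equal classes of tested genes by transcript length (5287 bases or more), as did 6 of the 33 higher ones. The median transcript length was 5382 bases for the lower genes, 3058 for the higher ones and 3259 for all tested genes. These 12 were Hspg2 and Lamb1, which encode the basement membrane proteins perlecan and a laminin chain, Hmcn1, Tenm4, Lrp1, Mdn1, Htt, Srrm2, Golgb1, Cit, Myo10 and Rbbp6.

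Hspg2 read 95.3, 121 and 109 CPM in the first peak, 116, 130.1 and 143 CPM in the trough and 114, 114 and 103 CPM in the second peak. The peak and trough libraries overlapped at 215 min, and the log2 difference was -0.24 (adjusted p = 0.0273, lost without any 1 of 5 libraries). Lrp1, an endocytic receptor, gave -0.25 (adjusted p = 0.0371) and Mdn1, a factor of ribosome assembly, -0.22 (0.0328), both lost without any 1 of 6 libraries. Over the 5 length classes the median difference of all tested genes ran from 0.01 in the shortest to -0.02 in the longest. After a correction for transcript length and GC content, added after the data were seen, 10 of the 12 still passed (all but Cit and Htt), with their median moving from -0.19 to -0.14. The part of transcript length in these calls was not tested further.

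The remaining lower genes were shorter. Dennd2c, which encodes a regulator of Rab GTPases, fell at both peaks, reading 20.8 to 25.7 CPM there and 26.4 to 31.4 CPM in the trough without overlap (log2 -0.35, adjusted p = 0.00154, or 0.0912 without the library of 275 min). Cxcr4, a chemokine receptor of endoderm and mesoderm and the 1 of 4 endoderm genes with a call, gave -0.29 (adjusted p = 0.0175). Fst, a secreted inhibitor of activin and the 1 of 11 anterior PSM and somite genes with a call, gave -0.24 (adjusted p = 0.0441). Foxb1 gave -0.18 (0.0324) and Ppp1r10 -0.19 (0.0113).

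**Figure D4:**
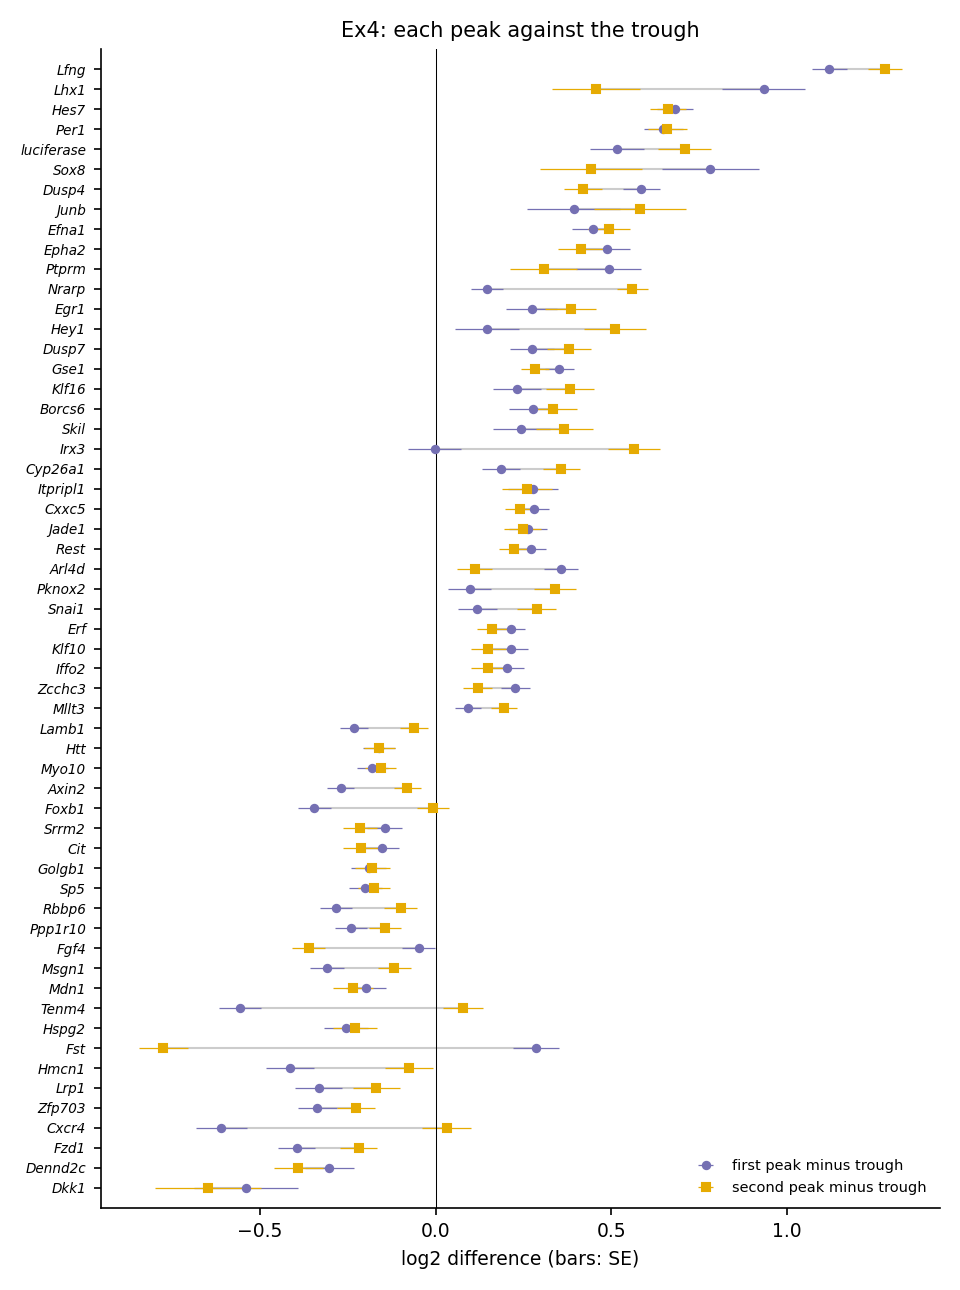
Log2 difference of each peak from the trough (horizontal axis, bars SE) for the 57 called genes; circles are the first peak, squares the second, and both share the 3 trough libraries. Circles and squares lie close together for Hes7, Per1, Efna1 and Epha2 and far apart for Fst, Tenm4, Cxcr4, Irx3 and Nrarp.

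The 2 peaks were not alike in all genes. Set against the trough singly, 522 genes passed for the first peak (4.38% of those tested), 250 higher (2.1%) and 272 lower (2.28%), and 231 for the second (1.94%), 131 higher (1.1%) and 100 lower (0.839%). Between the second and the first peak 2189 genes passed (18.4%), 1108 higher (9.3%) and 1081 lower (9.07%), so that change over the record was far more widespread than the contrast of peaks with trough. With library totals as the only scaling, the split was 300 higher and 204 lower for the first peak and 808 higher and 1390 lower between the peaks. These comparisons share libraries, and each gene's values are therefore set side by side.

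Hes7 differed from the trough by 0.68 at the first peak and 0.66 at the second, and Per1 by 0.65 and 0.66. The heights of Hes7 were fixed by the choice of windows; for Per1 the second peak minus the first gave 0.01 (adjusted p = 0.91). Nrarp differed by 0.15 at the first peak (adjusted p = 0.058) and 0.56 at the second, and the second peak exceeded the first by 0.41 (adjusted p = 7.4e-08). Lhx1 went the other way, with 0.93 and 0.46 and a second-minus-first difference of -0.48 (adjusted p = 0.003).

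In some genes the mean of both peaks hid opposite movements. Fst declined from window to window, from 119 CPM at 200 min through 86.5 CPM at 275 min to 43.9 CPM at 365 min. It was thus above the trough at the first peak (0.29) and below it at the second (-0.77). Tenm4 rose over the same span, with -0.56 and 0.08, and Cxcr4 with -0.61 and 0.03. For these 3 genes, and for Irx3 (0.56 at the second peak), Foxb1 (-0.34 and -0.01) and Fgf4 (-0.05 and -0.36), 1 of the peaks differed little from the trough or lay on the other side of it. A course that rises or falls and then levels off gives such values as well as a cycle does, and these cannot be told apart from 3 windows.

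The ends of the record give another view, because Hes7 fell toward them: it read 124 CPM at 155 min, 161 CPM at 170 min, 208 CPM at 385 min and 170.5 CPM at 405 min, of which that at 385 min lies above the trough range. Against these 4 libraries 1012 genes passed (8.46%), 588 higher at the peaks (4.92%) and 424 lower (3.54%). The number was 2614 without the library of 385 min, 223 without that of 405 min, 374 without that of 155 min and 381 to 521 without that of 200, 230, 327, 345 or 365 min. The peak libraries are the same as before, so only single values are given. Per1 stood above the ends by 0.58, Dusp4 by 0.50, Efna1 by 0.51, Nrarp by 0.34, Gse1 by 0.33 and Cxxc5 by 0.36 (adjusted p between 1.2e-04 and 2.6e-04). Dennd2c stood below them by -0.48 (adjusted p = 1.3e-04).

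For other called genes the ends did not match the middle trough. Ptprm gave -0.05, Egr1 -0.04, Klf10 0.01 and Axin2 -0.06 against the ends (adjusted p between 0.32 and 0.88). Of the other Wnt genes, Sp5 turned to 0.09 (adjusted p = 0.173), while Dkk1 stayed below the ends (-0.46, 0.0748). Ppp1r10, lower at the peaks than in the middle trough, was higher than at the ends (0.17, adjusted p = 0.023). When these 4 libraries were added as troughs with a curved time trend in the fit, 22 of the 30 higher and 7 of the 24 lower genes were called. In that fit Dkk1, Axin2 and Sp5 were not called (adjusted p = 0.109, 0.149 and 0.342).

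The same contrast was computed in Ex5, whose libraries had no part in choosing the Ex4 windows. Its windows were 225 to 255 min, 285 to 325 min and 345 to 385 min, placed on Hes7 values of Ex5 that were known from an earlier fit. Of 11876 genes tested there 87 passed (0.733%), 76 higher (0.64%) and 11 lower (0.0926%). Without the Ex5 library of 255 min 183 passed, without 285 min 160, without 325 min 45 and without 385 min 49. All 30 genes that were higher in Ex4 were also above 0 in Ex5, and 20 of them passed. Of the 24 lower genes 14 were below 0 in Ex5, 6 passed in the same direction, and 1, Hspg2, passed in the opposite one. Over all genes tested in both, 46.9% had the same sign. The 26 genes called alike were 48.2% of the 54 Ex4 genes and 31.0% of the 84 Ex5 genes, when Hes7, Lfng and luciferase are left out of both.

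The higher genes that passed in Ex5 had differences of 0.22 or more. Per1 read 105, 104.5 and 95.1 CPM in the first Ex5 peak, 58.6, 51.0 and 63.8 CPM in the trough and 98.3, 114 and 115 CPM in the second peak, again without overlap (log2 0.86, adjusted p = 6.91e-09). Dusp4 gave 0.64 in Ex5, Efna1 0.53, Epha2 0.69, Nrarp 0.52, Lhx1 0.87 and Gse1 0.46, with adjusted p between 2.12e-08 and 8.25e-05. Hes5, with 0.23 in Ex4, gave 0.87 in Ex5 (adjusted p = 0.00104), Notch1 gave 0.32 (1.80e-04), Spry4 0.36 (3.30e-04) and Dusp6 0.22 (0.00819).

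The lower genes divided by transcript length, a split chosen after their values were seen. All 12 lower genes outside the longest class were below 0 in Ex5, with a median of -0.23 in both experiments. Dkk1 gave -1.17 (adjusted p = 6.25e-04), Cxcr4 -0.36 (0.00171), Fgf4 -0.28 (0.0253), Foxb1 -0.28 (3.07e-04), Sp5 -0.23 (0.00899) and Fzd1 -0.23 (0.0103). Axin2 and Msgn1 gave -0.10 and -0.20 without a call (0.336 and 0.145). Of the 12 in the longest class 10 were above 0 in Ex5, with a median of 0.09 against -0.19 in Ex4.

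Hspg2 was the extreme case, with 135, 130.0 and 109.6 CPM in the first Ex5 peak, 126, 96.4 and 92.9 CPM in the trough and 133, 144 and 152 CPM in the second peak. It was thus higher at the Ex5 peaks (0.35, adjusted p = 0.0215), and after correction for length and GC content it gave 0.17 there (adjusted p = 0.201) and -0.17 in Ex4 (0.00949). Over the 5 length classes the Ex5 medians ran from -0.03 to 0.03, the opposite way from Ex4.

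**Figure D5:**
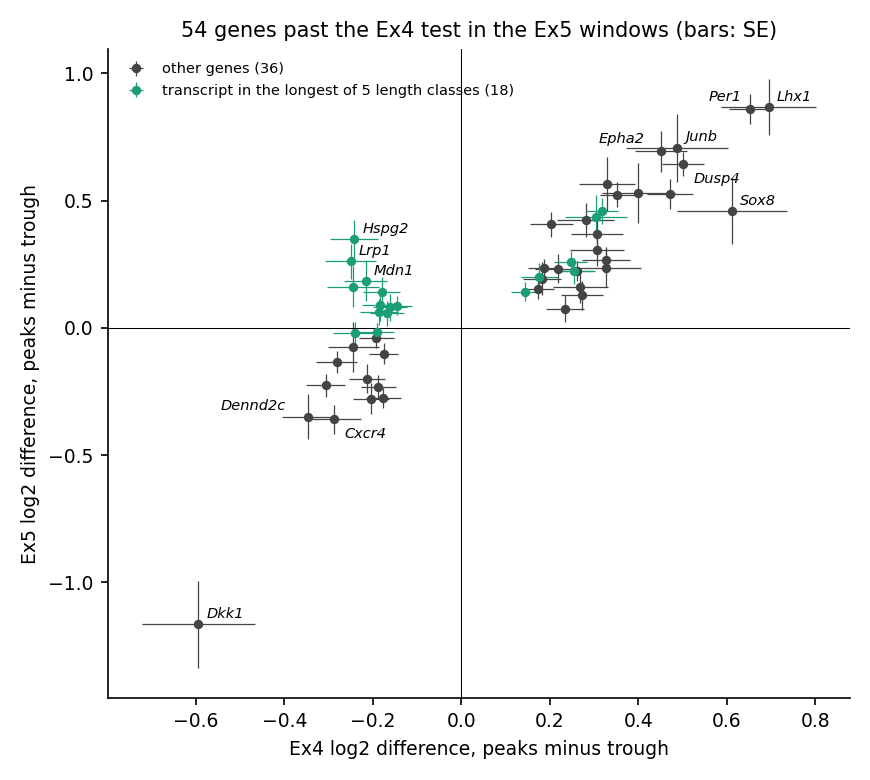
Log2 difference, peaks minus trough, in Ex5 (vertical axis) against Ex4 (horizontal axis) for the 54 called genes other than those that set the windows; bars are SE, and green points are genes in the longest of the 5 length classes. The 30 higher genes lie in the upper right, and the 10 lower genes that lie above 0 in Ex5 are all green.

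The difference between the experiments was itself tested in 18 libraries. In the edgeR test of Ex5 minus Ex4, 0 of 12081 genes passed (0%), 1264 had an unadjusted p below 0.05 (10.5%), DESeq2 called 4, and without the filter on low counts edgeR called 149. The lowest adjusted p among the named genes was that of Hspg2 (0.59 ± 0.11 SE, adjusted p = 0.0888). For Dkk1 the experiments differed by -0.57 ± 0.23 SE (0.401), for Hes5 by 0.65 ± 0.22 SE (0.297) and for Per1 by 0.21 ± 0.09 SE (0.41).

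Lists of other processes held no called gene: mRNA decay factors (12 tested), YAP targets (10), pluripotency and epiblast (7), Hox genes (26), G1/S and DNA replication (24), G2/M and mitosis (22), glycolysis and hypoxia (24), stress and amino acid response (20), cholesterol synthesis (18), mitochondrially encoded mRNAs (8) and cytosolic ribosomal proteins (73). Over all tested genes only 0.478% were called, so lists of these sizes without a call lie near that share. List medians lay between -0.03 and 0.03 for these, except -0.17 for the mitochondrially encoded mRNAs. The summed level of the latter ranged from 3240 to 4888 CPM at the peaks and from 3715 to 4560 CPM in the trough, which overlap. Summed pluripotency genes stood at 1399 to 1589 CPM at the peaks and 1431 to 1488 CPM in the trough, and summed endoderm genes at 37.4 to 57.5 and 51.4 to 60.8 CPM. The summed lateral, intermediate and vascular mesoderm genes, among them Lhx1, reached 12.9 to 15.6 CPM at the peaks and 10.3 to 12.8 CPM in the trough. The medians of this sum were 14.06 and 11.85 CPM, and Lhx1 alone averaged 5.63 and 3.43 CPM. The other 3 tested members had no call. The part of such cells in the Lhx1 result was not tested.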

How the data were processed

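Polyadenylated RNA of 32 dishes was sequenced with a strand-specific kit (TruSeq Stranded mRNA), per the labels' protocols. The authors deposited raw read counts per gene symbol, whole numbers with no normalization; per the submitters' processing notes they used HISAT2 (version 2.1.0) and the build mm10, HTSeq (version 0.6.1), cutadapt (version 1.14) and bcl2fastq (version 2.17.1.14). Which annotation and strand setting the counting used is not given in the sources used here, and overlapping genes may therefore share reads. Columns were matched to libraries by their descriptions (0 columns unused, 0 identical pairs).

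From these counts, genes reaching 1 CPM in 3 or more of the 9 libraries (11916 of 21886) were fitted with edgeR 4.0.16 in R 4.3.3: TMM factors, 1 mean per window, the quasi-likelihood F test of the mean of both peaks minus the trough, and Benjamini-Hochberg adjustment at 0.05. Levels are CPM with TMM factors over all 32 libraries. Ex5, the ends of the record and the difference between experiments were fitted in the same way. Length and GC content come from GENCODE M21, matched by symbol. Promoters come from a set of RefSeq promoters, matched by symbol, that did not hold every tested gene. The procedure was tested on simulated counts.

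The members, the 24 gene lists and the tests were chosen with earlier results of these data known. Named genes were up to 15 in each direction with the largest difference at 5 CPM or more, up to 4 called members of each list, the Notch list, and a set of clock, FGF and Wnt genes; Arl4d, Cit, Cxxc5, Erf, Foxb1, Golgb1, Htt, Iffo2, Itpripl1, Jade1, Lamb1, Mllt3, Myo10, Pknox2, Rest, Sox8, Srrm2 and Zcchc3 were added after their values were seen, to name all called genes. Alternatives were other scaling, DESeq2 1.42.0, limma-voom (limma 3.58.1), other filters, time terms and windows, a pooled spread, a length and GC correction, and each library left out.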

Additional observations from a re-analysis of the deposited data

How the results depend on the processing

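Of the named genes in the Ex4 comparison, 0 of the called ones and 15 of those without a call changed sign in some alternative, among them Hes1 and Hes5 with windows 1 library later (-0.49 and -0.34). Starting from 57 called genes (33 higher, 24 lower), DESeq2 gave 34 (11 lower), no filter on low counts 151 (56 higher, 95 lower), no time term 10 (10 higher, 0 lower), a quadratic time term with the outer troughs 9 lower, a spread pooled over both experiments 27 (21 and 6), windows 1 library later 22 (14 and 8), windows 1 library earlier 18 (18 and 0), and the length and GC correction, added after the data were seen, 87 (53 higher). Other scalings, limma-voom, a 5 CPM filter and a linear time term stayed within 1.5 times. Leaving out 1 library gave 21 to 117 called, 15 to 39 higher and 6 to 78 lower. The first peak alone then ranged from 169 to 801 called, 84 to 363 higher and 83 to 438 lower; the second peak alone from 80 to 298, 55 to 168 and 19 to 130; the second against the first peak from 1320 to 2388, 704 to 1215 and 569 to 1173; and the peaks against the ends from 223 to 2614, 140 to 1400 and 83 to 1214. Without the filter the second peak alone gave 377 (189 lower) and the peaks against the ends 1571 (772 lower). In Ex5, leaving out 1 library gave 45 to 183 called, 36 to 135 higher and 6 to 54 lower, no filter 244 (175 and 69), DESeq2 18 lower and the length and GC correction 51 (40 higher). The difference between experiments went from 0 to 4 with DESeq2 (2 higher, 2 lower) and to 149 without the filter (131 and 18). The cause of these changes was not tested. No paired analysis was possible because every library was frozen at its own time and its number names only a place within a window.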

Other observations

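Some genes with a call in Ex5 had Ex4 differences of the same direction that did not pass there, and they were picked after these values were seen. Sertad1 gave 0.28 in Ex4 (adjusted p = 0.0544) and 0.40 in Ex5 (0.0024), and Efna3, which encodes a further ephrin-A ligand, 0.24 (0.0648) and 0.39 (0.0024). Dusp2, a phosphatase of MAP kinases like Dusp4, gave 0.42 (0.179) and 0.59 (0.00136), and Shisa3, a protein that restrains Wnt and FGF receptors, 0.32 (0.148) and 0.52 (0.00218). The FGF ligand gene Fgf20 gave -0.64 in Ex4 (adjusted p = 0.154) and -1.07 in Ex5 (0.00909), next to Fgf4 with -0.20 and -0.28. Ciart, a repressor of the circadian clock, gave 0.16 in Ex4 (adjusted p = 0.69) and 0.43 in Ex5 (0.0024). None of these differences between the experiments was past the edgeR test of Ex5 minus Ex4, in which 0 of 12081 genes passed, 1264 had an unadjusted p below 0.05 and DESeq2 called 4.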
